A study of Homo sapiens with 12 samples.

Results

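Untreated TFK1 cells are described here, as 3 control libraries of the 12 libraries in the series. The members were taken from the labels alone: every library labelled as control, and no other. TFK1 is an established human cell line from a cholangiocarcinoma, a cancer of the bile duct epithelium, and its genotype is labelled WT. The other 9 libraries form 3 groups of 3, which received 6 Gy of radiation, nab-paclitaxel at 1.62 ng/ml, or nab-paclitaxel at 1.62 ng/ml with 6 Gy. Nab-paclitaxel is paclitaxel, a microtubule-stabilising drug, bound to albumin. RNA was taken 24 h after treatment, and all groups grew in RPMI 1640 with serum. The labels call the libraries biological replicates but do not say whether they came from separate cultures, so errors and p-values measure the spread between these samples.

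The bile duct is lined by cholangiocytes, epithelial cells that carry simple keratins, seal their borders with claudins and cadherin junctions, and modify bile by moving chloride, bicarbonate, water and bile acids. They share a progenitor with hepatocytes, and transcription factors such as SOX9 and the ONECUT factors are known for the biliary branch of that lineage. Cholangiocarcinomas are known for growth factor receptor changes, loss of cell cycle inhibitors and resistance to many drugs. Which of these genes an untreated line transcribes sets the level from which any treatment effect is read.

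Levels are given as FPKM, fragments scaled to exon length and a depth factor per library, so that genes of different length can be compared. Fragment totals divided by the factor recovered from the deposited values gave 0.982, 1.033 and 0.982 in control 1, 2 and 3. The factor was therefore not the fragment total. Values after ± are SDs over the 3 control libraries (n = 3). A gene was called expressed where all 3 libraries reached 1 FPKM, and absent where all 3 were below 0.1. The control libraries held 15650154, 15864937 and 14840283 fragments, within a series range of 14840283 to 17992242. At this depth 3 fragments, the floor used for genes at 0, were worth 0.0134 FPKM in a long gene such as APOB and 0.199 FPKM in a short one such as CTAG1B. These floors cover counting error only. Messenger RNAs of the mitochondrial genome took 11.2%, 13.6% and 11.5% of fragments in control 1, 2 and 3.

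Of 19951 protein-coding genes, 10858 (54.4%) were expressed, 3536 reached 10 FPKM in every library and 171 reached 100. At the other end 5332 (26.7%) were absent, of which 3132 had no fragment in any library. Protein-coding genes took 95.8% ± 0.0939 of all fragments. The highest coding genes were mitochondrial, led by MT-CO1, a subunit of cytochrome c oxidase, at 19262, 24002 and 20383 FPKM. Among nuclear genes the highest were EEF1A1, a translation elongation factor, at 1940.3 ± 40.1 FPKM, then HSPA5 at 1694 ± 99.6 and HSP90B1 at 1347 ± 199, which are chaperones of the endoplasmic reticulum. These 3 were singled out after their values were seen. The 10 highest nuclear genes together took 4.87% ± 0.080 of nuclear coding fragments, the 100 highest 14.7% ± 0.574 and the 1000 highest 41.9% ± 0.667, so no small set of nuclear genes dominated the libraries. Of long noncoding RNAs, GAS5 stood at 82.7 ± 7.4 FPKM, NORAD at 75.2 ± 7.26 and MALAT1 at 38.7 ± 5.39, which were also named after their values were seen.

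The 3 libraries agreed unequally. Across the 13835 genes whose control mean reached 1 FPKM, log2(FPKM + 1) of control 1 and control 3 correlated with r = 0.981 (rho = 0.977), against r = 0.960 (rho = 0.950) for control 1 and control 2 and r = 0.958 (rho = 0.949) for control 2 and control 3. These are correlations across genes, which are not independent replicates. The median difference between the libraries of a pair was 0.0981 on the log2 scale for control 1 and control 3, and 0.258 and 0.271 for the pairs with control 2. Among the 7498 genes whose mean reached 5 FPKM, 1236 (16.5%) had a highest library at least 1.5 times the lowest. Control 2 was at least 1.5-fold outside both others in 490 genes, control 1 in 57 and control 3 in 40. Without control 2 the count of 1236 genes became 115. The median coefficient of variation was 13.5%, against 3.36% from counting error alone.

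Control 2 differed along gene length. In the shortest of 5 length classes of genes, its median log2 difference from the mean of the other libraries was -0.128, and in the longest class it was 0.101. The corresponding values ran from 0.091 to -0.073 in control 1, and from 0.013 to -0.031 in control 3. Control 2 also had the largest mitochondrial share of the 3. Whether length, mitochondrial share or RNA quality has a part in the difference was not tested. TMSB10, which encodes an actin-sequestering peptide and has 496 bases of exon, read 1080.5, 469 and 759 FPKM, and HMGA1, a chromatin architectural protein, read 704, 465 and 722. The widest ratio among the coding genes belonged to EIF3CL, a near-identical copy of EIF3C, with 19.2, 4.91 and 1.09 FPKM, and reads of such copies can be split between them by the counting. Small RNAs filled most of the other places among the 10 widest ratios, including MT-TH, a mitochondrial transfer RNA. At the steady end, ACTB read 401, 390.3 and 393 FPKM and CD44, a surface receptor for hyaluronan, read 45.3, 45.4 and 45.3. ACTB was 395 ± 5.39 FPKM, a coefficient of variation of 1.36%.

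**Figure D1:**
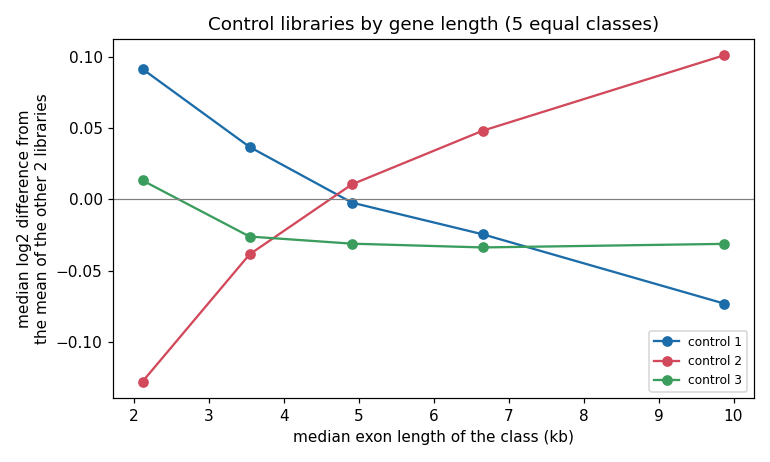
Median log2 difference of each control library from the mean of the other 2 (vertical axis) in 5 equal classes of genes by exon length (horizontal axis, median length of the class in kb). Control 2 runs from -0.128 in the shortest class to 0.101 in the longest, and control 1 runs the other way.

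An absent reading needed a check of gene position, because values near 0 clustered in genes that share most of their exon sequence with a neighbour. Of 11097 coding genes with no shared exon base, 51.0% were expressed. With up to 10% of exon bases shared it was 68.5%, from 10% to 25% it was 67.7%, and from 25% to 50% it was 51.5%. The class from 25% to 50% was thus lower than the class before it. Against genes with no shared exon base, expressed genes were rarer only above 50% shared. Of 401 genes with more than 50% and up to 75% of exon bases shared, 21.7% were. Between 75% and 90%, 6 of 207 genes were expressed, and above 90% it was 0 of 525. Sharing with genes on the opposite strand alone gave the same picture, with 3 of 49 genes expressed above 75%. Whether fragments in shared exons were left out of the deposited counts cannot be told from the sources used here. The share is therefore printed beside each low value below where it reaches 20%. Of the genes in the lists described here, 26 were not expressed and shared at least 50% of their exon bases. MIF, a macrophage-directed cytokine, was one of them, with 0.226, 0.0587 and 0.179 FPKM and 61.9% of its exon bases shared, mainly with MIF-AS1. For such genes a low reading and a low level cannot be told apart.

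**Figure D2:**
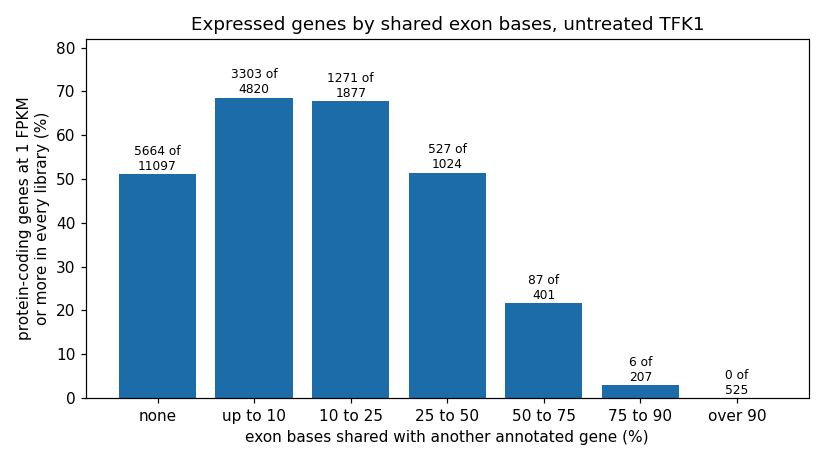
Share of protein-coding genes at 1 FPKM or more in every control library (vertical axis, %) by the share of exon bases that overlap another annotated gene (horizontal axis, %). The share was 51.0% with no overlap and 0 of 525 genes above 90%.

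The genes of interest were described in 49 lists with 1140 distinct genes, of which 635 (55.7%) were expressed, close to the 54.4% of all coding genes. The lists differed widely around that mean. Every member of the Fanconi (13 of 13), mismatch repair (7 of 7), base excision repair (22 of 22) and translesion (10 of 10) lists was expressed. None of the Toll-like receptor (0 of 10), lymphocyte (0 of 10) and endothelial and erythroid (0 of 9) lists was. Without control 2 the total was 642 genes.

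**Figure D3:**
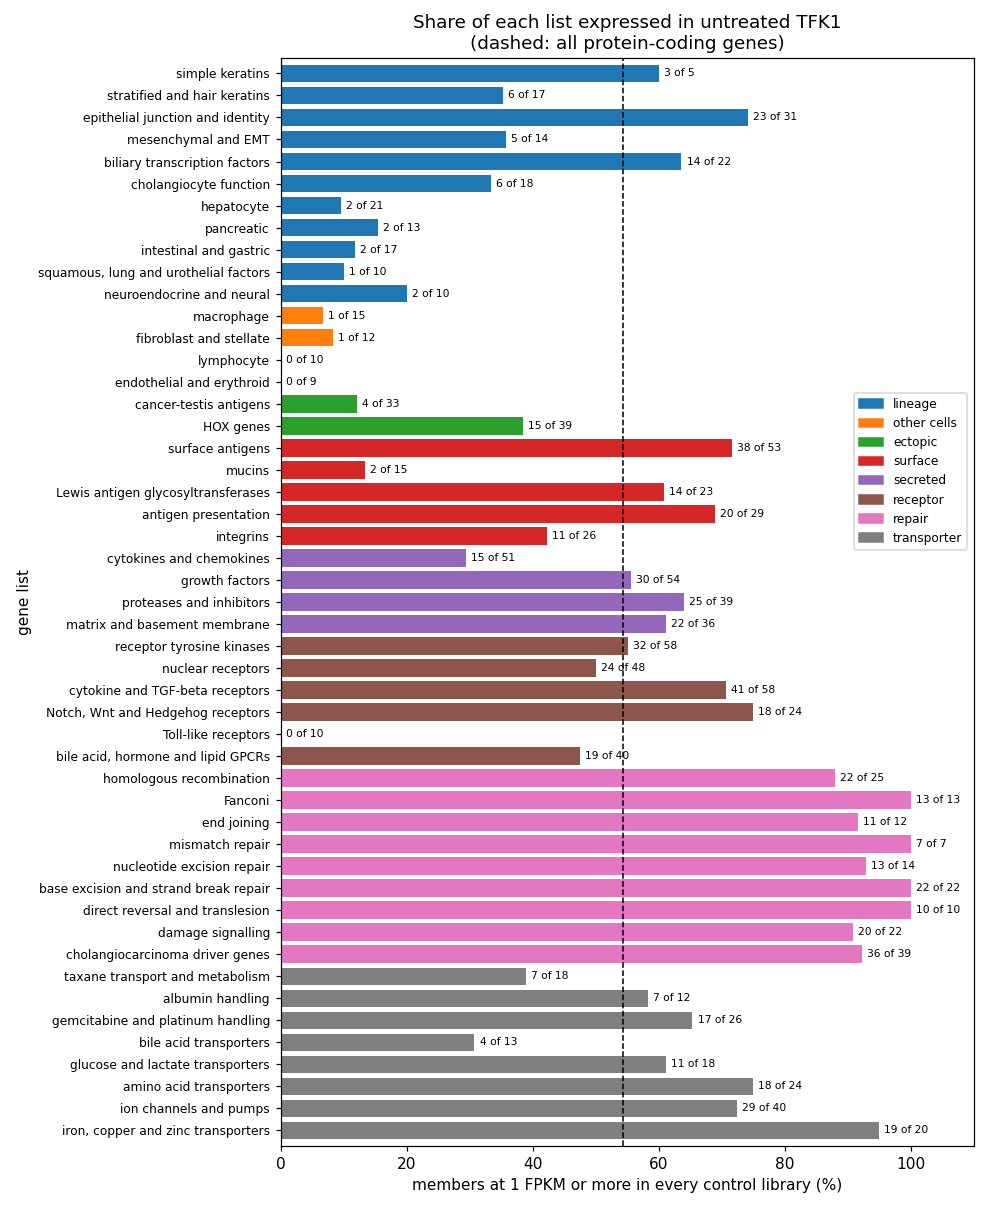
Share of each gene list at 1 FPKM or more in every control library (horizontal axis, %), with the number of members beside each bar and list categories by colour. The dashed line marks the 54.4% of all protein-coding genes, which the DNA repair lists exceed and the hepatocyte and leukocyte lists do not reach.

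Promoter windows are shown for 4 expressed and 2 low genes on which the description below turns: GDF15, the highest cytokine, SOX4, the highest biliary transcription factor, CLDN4, an epithelial claudin, EPHA2, the highest receptor tyrosine kinase, ALB, the hepatocyte product albumin, and VIM, the mesenchymal filament vimentin. They come from RefSeq on GRCh38.p14 and run 5′ to 3′ on the gene's strand, ending 50 bases after an annotated start, and these libraries do not tell which start is used. The windows are chr19:18385908-18386207, plus strand for GDF15, chr6:21593501-21593800, plus strand for SOX4, chr7:73830746-73831045, plus strand for CLDN4, chr1:16156020-16156319, minus strand for EPHA2, chr4:73404037-73404336, plus strand for ALB and chr10:17227991-17228290, plus strand for VIM. Capitals mark matches on either strand, which did not overlap. The motif TATAAA is the core of the classical TATA box. The motif GGGCGG is bound by SP1 factors, and CCAAT is bound by NF-Y. The motif TGACTCA is the site of AP-1 factors. The motif CACGTG is the palindromic E-box, which no printed window held.
GDF15: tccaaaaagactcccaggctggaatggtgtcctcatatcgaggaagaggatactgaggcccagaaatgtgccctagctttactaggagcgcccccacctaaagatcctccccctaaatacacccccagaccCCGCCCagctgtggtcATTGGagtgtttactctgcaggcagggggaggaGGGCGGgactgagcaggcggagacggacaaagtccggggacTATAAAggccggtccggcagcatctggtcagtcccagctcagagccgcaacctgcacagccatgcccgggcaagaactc
SOX4: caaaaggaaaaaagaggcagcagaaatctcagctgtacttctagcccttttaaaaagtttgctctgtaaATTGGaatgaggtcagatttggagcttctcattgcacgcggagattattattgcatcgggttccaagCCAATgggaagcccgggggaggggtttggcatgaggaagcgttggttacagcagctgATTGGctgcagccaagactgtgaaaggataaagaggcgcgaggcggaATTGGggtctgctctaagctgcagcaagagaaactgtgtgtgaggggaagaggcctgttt
CLDN4: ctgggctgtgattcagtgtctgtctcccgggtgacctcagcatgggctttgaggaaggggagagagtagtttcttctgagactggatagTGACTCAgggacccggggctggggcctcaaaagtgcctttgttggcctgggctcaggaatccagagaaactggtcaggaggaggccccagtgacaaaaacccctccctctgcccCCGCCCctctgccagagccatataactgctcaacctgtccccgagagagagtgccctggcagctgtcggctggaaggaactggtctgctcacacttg
EPHA2: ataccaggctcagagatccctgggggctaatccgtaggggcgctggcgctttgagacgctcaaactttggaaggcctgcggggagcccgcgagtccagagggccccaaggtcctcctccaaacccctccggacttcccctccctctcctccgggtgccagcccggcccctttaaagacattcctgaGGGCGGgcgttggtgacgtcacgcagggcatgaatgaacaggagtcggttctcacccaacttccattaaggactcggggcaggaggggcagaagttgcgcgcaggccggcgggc
ALB: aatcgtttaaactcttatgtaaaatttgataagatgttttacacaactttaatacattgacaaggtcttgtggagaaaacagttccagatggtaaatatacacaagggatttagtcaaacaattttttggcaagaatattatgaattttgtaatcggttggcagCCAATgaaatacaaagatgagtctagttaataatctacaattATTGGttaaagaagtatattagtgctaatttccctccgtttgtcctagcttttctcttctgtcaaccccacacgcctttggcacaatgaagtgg
VIM: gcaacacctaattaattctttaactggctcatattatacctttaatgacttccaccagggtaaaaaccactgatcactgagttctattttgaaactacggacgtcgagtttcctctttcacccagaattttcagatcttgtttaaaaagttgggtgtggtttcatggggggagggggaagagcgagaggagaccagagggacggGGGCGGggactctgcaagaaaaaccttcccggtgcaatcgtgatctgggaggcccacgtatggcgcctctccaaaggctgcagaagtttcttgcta
Of all 34794 distinct RefSeq windows of this length, 11.6% held TATAAA, 44.9% GGGCGG, 34.6% CCAAT, 4.96% TGACTCA and 7.21% CACGTG. GDF15 alone of the 6 held TATAAA, beside 2 GGGCGG and 1 CCAAT. SOX4 held 4 CCAAT and ALB 2, CLDN4 held 1 TGACTCA and 1 GGGCGG, and EPHA2 and VIM held 1 GGGCGG each. The expressed EPHA2 and the low VIM thus had the same motif count, and these letters did not separate the expressed from the low genes. GC content was 64.3% in EPHA2, 59.3% in GDF15, 49.3% in SOX4, 48% in VIM, 33.3% in ALB, and 59% in CLDN4.

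Lineage genes showed an epithelial cell with an incomplete biliary profile. Of 9 markers fixed for biliary epithelium, 6 were expressed, and KRT7 and CFTR were among those that were not. KRT19, a simple keratin of ducts (chr17:41523617-41528308, hg38), read 247, 199 and 255 FPKM. KRT8 read 243, 161 and 243 FPKM and its partner KRT18 read 198, 135 and 178, with control 2 lowest for all 3 keratins. KRT7, a keratin widely used to mark bile ducts, read 0.399, 0.414 and 0.453 FPKM, below the expressed level in every library, with 7.67% of its exon bases shared. KRT20, an intestinal keratin, was at 0.373 ± 0.108. Among stratified and hair keratins, 6 of 17 were expressed, led by KRT80 at 17.3 ± 3.23 FPKM, and KRT1, KRT4, KRT6A, KRT6B and KRT6C had no fragment.

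Epithelial junction genes had 23 of 31 members expressed. EPCAM, an epithelial adhesion molecule, read 102, 112 and 104 FPKM, and CDH1, the adherens junction cadherin, read 50.1, 47.7 and 49.5. Plakoglobin (JUP) stood at 81.8 ± 14.6 FPKM, the epithelial splicing regulator ESRP1 at 61.5 ± 9.03 and CLDN4 at 45.6 ± 6.15. Desmosomal DSG3 and PKP1, which belong to stratified epithelium, were absent. On the mesenchymal side 5 of 14 genes were expressed. VIM read 0.170, 0.215 and 0.192 FPKM (24.4% of exon bases shared), and CDH2, the mesenchymal cadherin, had 1 fragment in the 3 libraries together. SNAI1, a repressor of CDH1, was nonetheless at 9.96 ± 0.849 FPKM and S100A4, a calcium-binding protein often used as a mesenchymal marker, at 27.8 ± 3.95, while ZEB2 and PRRX1 were absent.

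Of 22 biliary transcription factors 14 were expressed. SOX4 (105, 106 and 115 FPKM) and SOX9 (65.2, 63.3 and 72.4) were the highest and agreed closely between libraries. The Hippo effector YAP1 stood at 25.2 ± 3.09 FPKM and GATA6, a factor of endodermal progenitors, at 4.43 ± 0.314. GATA4, SOX17 and PROX1 were absent. Of 18 genes of cholangiocyte function 6 were expressed and 5 absent. The chloride channel ANO1 (9.49 ± 0.428 FPKM), the chloride-bicarbonate exchanger SLC4A2 (23.5 ± 3.89), carbonic anhydrase CA2 (17.6 ± 2.4) and the scaffold SLC9A3R1 (42.1 ± 2.61) were among the expressed. CFTR, the chloride channel of the cholangiocyte apical membrane, read 0.114, 0.0627 and 0.0991 FPKM, and the bile acid transporter SLC10A2 and the trefoil peptide TFF3 had no fragment.

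Hepatocyte genes were nearly silent, with 14 of 21 absent and 9 of those at 0. ALB read 0.130, 0.0193 and 0.0196 FPKM, which corresponds to 7, 1 and 1 fragments, and APOB had none, which allows up to 0.0134 FPKM. HNF4A, the hepatocyte master factor, was at 0.142 ± 0.0473. The 2 expressed members were CPS1, the first enzyme of the urea cycle, at 5.32 ± 0.38 FPKM, and SERPINA1, the protease inhibitor antitrypsin, at 4.97 ± 0.914. Of 13 pancreatic genes 2 were expressed and 10 absent, and of 17 intestinal and gastric genes it was 2 and 10. The intestinal factor CDX2 (3.62 ± 0.822 FPKM) and the pancreatic factors NKX6-1 (5.36 ± 0.945) and PDX1 (1.58 ± 0.314) were expressed. The digestive enzymes PNLIP, CPA1 and AMY2A and the gastric peptides TFF1 and TFF2 had no fragment.

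**Figure D4:**
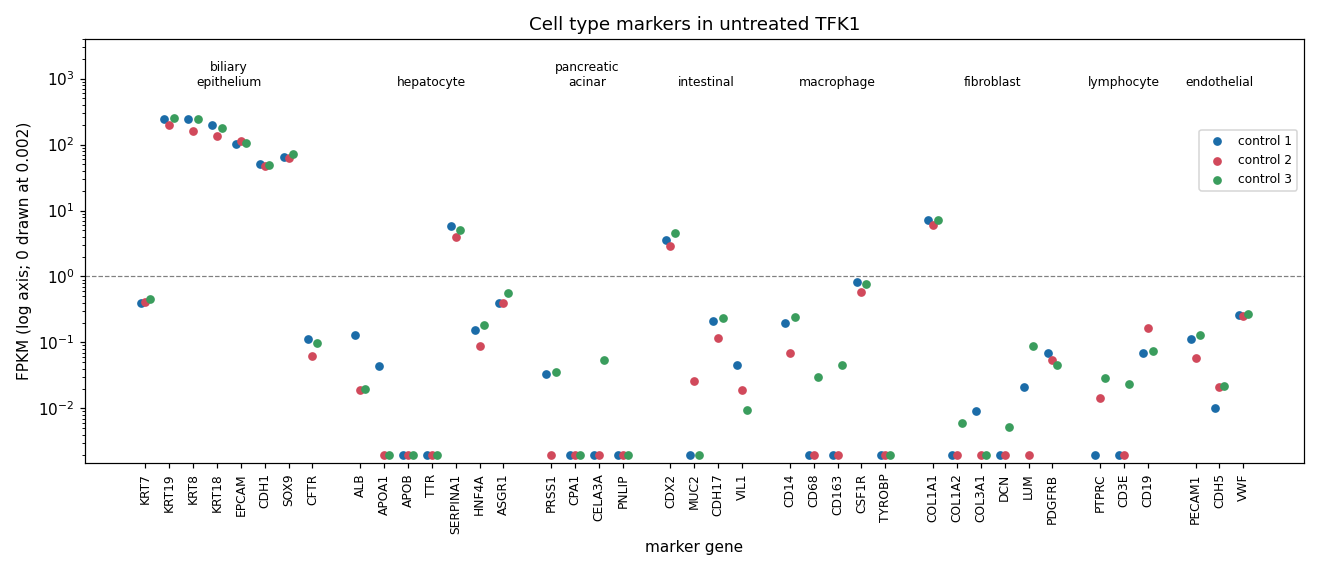
FPKM of the cell type markers reported here (vertical axis, log scale, 0 drawn at 0.002) in control 1, 2 and 3, each point 1 library, with the dashed line at 1 FPKM. KRT19, KRT8, KRT18, EPCAM, CDH1 and SOX9 lie above 40 FPKM in every library, and KRT7 and CFTR lie below 1.

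Markers of other cell types were at or near 0. The summed level of 5 macrophage markers was 1.02, 0.651 and 1.09 FPKM, most of it CSF1R (0.723 ± 0.125), and TYROBP had no fragment. CD68 had 1 fragment in all, with 85.8% of its exon bases shared. The 3 lymphocyte markers summed to 0.0695, 0.182 and 0.125 FPKM and the 3 endothelial markers to 0.383, 0.331 and 0.417. Of the 6 fibroblast markers only COL1A1, a chain of type I collagen, was expressed, at 6.85 ± 0.665 FPKM, whereas its partner chain COL1A2 had 1 fragment in all and DCN, LUM and COL3A1 were absent. ITGAX, an integrin of myeloid cells, was at 1.81 ± 0.153. In bulk RNA, fewer cells of a type and less RNA per cell cannot be told apart.

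Cancer-testis antigens (12.1%) and HOX genes (38.5%) were expressed less often than all coding genes (54.4%). Of 33 cancer-testis antigens, which are germ cell proteins re-expressed in tumours, 4 were expressed and 22 absent. MAGEB2 read 95.4, 93.6 and 81.0 FPKM, a level above that of CDH1. MAGEA3 stood at 35.2 ± 2.1 FPKM, PRAME at 17.3 ± 1.29 and the fetal RNA-binding protein IGF2BP3 at 12.5 ± 1.59. MAGEA1, MAGEA4, MAGEA10 and MAGEC2 had no fragment. MAGEA3 has the near-identical copy MAGEA6, which read 0.0337, 0.105 and 0.320 FPKM, and the 2 values are uncertain to the extent that the counting split their reads. Of 39 HOX genes, which pattern the body axis, 15 were expressed. HOXB9 read 18.6, 18.8 and 19.7 FPKM and HOXB7 read 11.7, 11.8 and 11.2, and HOXB13, the most posterior gene of its cluster, was at 3.69 ± 0.632. HOXB1 and HOXC11 had no fragment.

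On the cell surface, 38 of 53 listed antigens were expressed and 5 absent. Basigin (BSG), a partner of lactate transporters, read 154, 116 and 155 FPKM. Among targets of antibody drugs, mesothelin (MSLN) stood at 15.2 ± 2.79 FPKM and CD276, an immune checkpoint ligand, at 16.5 ± 1.28. NECTIN4 was lower, at 0.690 ± 0.308. CD274, which encodes PD-L1, was at 2.28 ± 0.322 FPKM, and the carcinoembryonic antigen gene CEACAM5 at 0.0764 ± 0.0485. Mucins were scarce. Only MUC3A (1.24 ± 0.0505 FPKM) and MUC20 (1.14 ± 0.114, 42.8% shared) of 15 were expressed, and MUC1, the membrane mucin of most glandular epithelia, read 0.333, 0.290 and 0.323. The gel-forming mucins MUC2 and MUC5AC were absent. Of 23 glycosyltransferases that build Lewis antigens, among them the CA19-9 epitope, 14 were expressed, including FUT3, the Lewis enzyme, at 1.57 ± 0.382 FPKM and FUT2 at 3.39 ± 0.771.

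Antigen presentation was expressed in 20 of 29 genes. The class I heavy chains HLA-C (141, 105 and 141 FPKM) and HLA-B (80.8 ± 8.69) were above 70 FPKM in every library, and B2M, their light chain, stood at 57.0 ± 8.59. TAP1, which loads peptides, was at 7.41 ± 1.03, and the immunoproteasome subunit PSMB8 at 0.251 ± 0.0694 (20.6% shared). Class II genes were uneven. HLA-DRA read 25.2, 22.2 and 24.4 FPKM, while HLA-DRB1, its partner chain, read 3.12, 1.59 and 2.64. CD74, the class II invariant chain, read 1.04, 0.348 and 0.540, and CIITA, the class II transactivator, read 0.136, 0.119 and 0.0924 (23.4% shared). HLA-DQA1 was absent at 0.0433 ± 0.0226 FPKM, as was HLA-DQB1 at 0.0528 ± 0.00141. HLA genes are highly polymorphic, and how the authors' alignment handled that is not given in the sources used here. Among ligands of the natural killer receptor NKG2D, ULBP1 stood at 13.0 ± 1.39 FPKM, MICB at 13.0 ± 1.68, MICA at 11.9 ± 2.53 and ULBP2 at 10.9 ± 0.87.

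Of 26 integrin genes 11 were expressed and 4 absent. ITGB1, the common beta chain, read 189.8, 222 and 181 FPKM, with ITGA3 at 79.2 ± 12.4, ITGA2 at 54.0 ± 7.54 and the hemidesmosomal ITGB4 at 26.4 ± 5.81. Of leukocyte integrins ITGAL and ITGA4 were absent, while ITGAX was expressed at 1.81 ± 0.153. ITGB6, an epithelial integrin that activates TGF-beta, was at 0.147 ± 0.0424 FPKM (20.6% shared).

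Secreted factors were led by 1 cytokine. GDF15, a stress-responsive member of the TGF-beta family (chr19:18374731-18389176, hg38), read 1186, 1019 and 1296 FPKM, so that only 4 nuclear genes had a higher mean. Of 51 cytokines and chemokines 15 were expressed. Galectin-1 (LGALS1) stood at 328 ± 77.5 FPKM, the neutrophil chemokine CXCL8 at 27.7 ± 7.45 and LIF, of the interleukin-6 family, at 21.4 ± 2.93. CSF1, the macrophage growth factor, was at 1.42 ± 0.158. CCL2, CXCL9, CXCL10 and CXCL12, which attract monocytes or lymphocytes, had no fragment, and IL6 had 2 fragments in control 3 and none in the others (20.7% shared).

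Growth factors were expressed in 30 of 54 cases. BMP4, a TGF-beta family morphogen, read 141, 111 and 145 FPKM. Among ligands of the EGF receptor, AREG read 127, 130.4 and 122 FPKM and TGFA 32.1, 32.2 and 32.3, close together in the 3 libraries. EREG was at 24.0 ± 5.47 and HBEGF at 4.03 ± 0.177. The Wnt inhibitor DKK1 was at 94.3 ± 12.3 FPKM, and FGF19, the intestinal hormone that represses bile acid synthesis through FGFR4, at 37.9 ± 1.71. FGFR4 itself was at 20.2 ± 3.35. HGF, VEGFC and IGF1 were absent, the last with 82.4% of its exon bases shared.

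Among 39 proteases and inhibitors 25 were expressed. The inhibitor TIMP1 read 139, 129 and 125 FPKM and urokinase (PLAU) stood at 15.9 ± 1.03 (31.1% shared), while the matrix metalloproteinases MMP2 (0.0573 ± 0.0466) and MMP7 (0.101 ± 0.0402) were not expressed. Of 36 matrix genes 22 were expressed. SPARC, a matrix protein that binds albumin, read 155, 138 and 148 FPKM and the basement membrane chain LAMB2 was at 54.7 ± 6.89. COL4A1 and COL4A2, the common chains of type IV collagen in basement membranes, were absent, and fibronectin (FN1) was at 4.35 ± 0.31.

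Of 58 receptor tyrosine kinases 32 were expressed and 16 absent. EPHA2, an ephrin receptor, read 86.1, 73.3 and 94.8 FPKM and was the highest in every library. PTK7, a Wnt co-receptor of this family, followed at 33.0 ± 4.69. DDR1, a collagen receptor, stood at 25.9 ± 4.86 and AXL at 15.6 ± 1.52. EGFR read 13.7, 14.5 and 14.6 FPKM and MET, the HGF receptor, was at 10.6 ± 1.78. The targets of drugs used in this cancer, ERBB2 (7.15, 4.45 and 7.62 FPKM) and FGFR2 (6.26, 6.38 and 6.51), lay side by side in the order of levels. Their means of 6.41 ± 1.71 and 6.38 ± 0.125 differed by less than the spread between libraries. FGFR3 was at 9.25 ± 1.45 and FGFR1 at 6.60 ± 0.544, so all 4 signalling FGF receptors were expressed. ERBB3 read 4.43, 3.35 and 4.21, whereas ERBB4, KIT and KDR, the last a marker of endothelium, were absent.

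Nuclear receptors were expressed in 24 of 48 cases. The orphan receptor NR2F6 stood at 33.9 ± 4.57 FPKM, the vitamin D receptor VDR at 4.95 ± 0.671 and RXRA, the partner of many of these receptors, at 6.63 ± 0.983. The bile acid receptor FXR, encoded by NR1H4, read 0.0173, 0 and 0.0182 FPKM. The xenobiotic receptor NR1I2 was at 0.0199 ± 0.00664, and the oestrogen receptor ESR1 at 0.0518 ± 0.0379. Receptors of bile acids at the surface were low too, with GPBAR1 at 0.121 ± 0.051 FPKM, whereas S1PR2, which also responds to conjugated bile acids, was at 4.14 ± 0.171. Secretin receptor (SCTR) was at 0.521 ± 0.108. The highest G protein-coupled receptors were NTSR1, the neurotensin receptor, at 81.7, 66.2 and 94.9 FPKM and the orphan GPRC5A at 81.4, 78.7 and 79.8, whose means differed by less than the spread of NTSR1. Of the somatostatin receptors, SSTR5 was at 11.7 ± 1.93 and SSTR2 at 0.0411 ± 0.0164.

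Of 58 cytokine and TGF-beta receptors 41 were expressed. The death receptor TNFRSF10B read 87.2, 73.3 and 82.6 FPKM, against 2.75 ± 0.884 for FAS. The oncostatin M receptor OSMR was at 36.3 ± 4.3, TGFBR2 at 19.1 ± 1.89, IFNGR1 at 19.1 ± 3.26 and IFNAR1 at 9.88 ± 1.66. IFNAR2, the other type I interferon receptor chain, read 0.463, 0.649 and 0.588 FPKM, with 83.2% of its exon bases shared. The Notch, Wnt and Hedgehog list was expressed in 18 of 24 members, led by FZD6 (36.0 ± 8.04 FPKM) and NOTCH3 (25.3 ± 4.32), while LGR5, a stem cell marker, was absent. Toll-like receptors were all below the expressed level in at least 1 library. TLR7 came nearest at 0.940, 1.29 and 0.686 FPKM, TLR3 was at 0.362 ± 0.0738, and TLR2, TLR4 and TLR8 had no fragment.

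DNA repair genes were expressed nearly throughout, mostly at a few FPKM. Homologous recombination, which copies a sister chromatid, had 22 of 25 genes expressed, with RPA1, a single-strand binding protein, at 22.5 ± 0.694 FPKM, BRCA1 at 4.46, 4.97 and 4.67 and BRCA2 at 2.48, 3.27 and 2.27. RAD50, which tethers broken ends, was not, at 0.816 ± 0.104 (79.7% shared). End joining had 11 of 12, with the Ku subunits XRCC6 (96.8 ± 9.15 FPKM) and XRCC5 (69.9 ± 6.6) and the kinase PRKDC (30.2 ± 2.01) far above the ligase LIG4 (6.39 ± 1.51). The exception was NHEJ1 at 0.317 ± 0.0968 (65.4% shared). In nucleotide excision repair 13 of 14 were expressed, the exception being ERCC5 at 0.183, 0.182 and 0.185 FPKM (63.2% shared, mainly with the readthrough gene BIVM-ERCC5).

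Base excision repair was led by the endonuclease APEX1 (63.4 ± 8.39 FPKM) and PARP1 (28.0 ± 2.97), which senses strand breaks. MGMT, which removes alkyl groups from guanine, read 2.70, 2.82 and 2.68. Checkpoint kinases lay close together, with ATR at 5.77 ± 1.06, CHEK2 at 4.39 ± 0.302, ATM at 4.16 ± 0.593 and CHEK1 at 4.16 ± 0.892. The cyclin-dependent kinase inhibitor CDKN1A read 122, 108 and 119.8 FPKM, and the ubiquitin ligase MDM2 was at 13.8 ± 2.41. CDKN2A, a cell cycle inhibitor often deleted in this cancer, read 6.12, 5.61 and 6.59. Of 39 genes often altered in cholangiocarcinoma 36 were expressed, with CCND1, a G1 cyclin, at 159 ± 8.25 FPKM and IDH1 at 47.6 ± 3.1, and ROBO2 was at 0. These values say nothing about mutations, which were not analysed here.

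Of 18 genes for taxane transport and metabolism 7 were expressed, all of them exporters of the ABC family. ABCC1 read 28.4, 23.4 and 29.2 FPKM, ABCC2 17.0, 17.3 and 16.5, and ABCC3 was at 15.7 ± 2.11. ABCB1, the P-glycoprotein best known for taxane export (chr7:87503633-87713323, hg38), read 2.12, 2.49 and 2.28, and ABCG2 was at 0.657 ± 0.0921. The hepatic uptake carrier SLCO1B3 read 0.372, 0.607 and 0.131 FPKM with 54.5% of its exon bases shared, and SLCO1B1 was absent. Of the enzymes that hydroxylate paclitaxel, CYP3A4 had 3 fragments in control 3 and none in the others, and CYP2C8 was at 0.101 ± 0.0455. Among albumin-handling genes CALR, a chaperone of the endoplasmic reticulum, was at 793 ± 130.4 FPKM and CAV1, which forms caveolae, at 5.24 ± 0.707. FCGRT, the albumin recycling receptor, was at 0.944 ± 0.245, and the endocytic receptor LRP2 was absent at 0.0503 ± 0.00566.

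For gemcitabine and platinum, 17 of 26 genes were expressed. The nucleoside carrier SLC29A1 stood at 14.1 ± 0.573 FPKM, the activating kinase DCK at 10.3 ± 3.03 and the inactivating deaminase CDA at 9.86 ± 2.05. Bile acid transport was expressed in 4 of 13 genes. FABP6, an intracellular bile acid binder, was at 16.9 ± 3.61 FPKM, while the canalicular pump ABCB11 and the phospholipid floppase ABCB4 were absent, and SLC51A, a basolateral exporter subunit, was at 0.633 ± 0.0858 with its partner SLC51B absent. Of 24 amino acid transporters 18 were expressed, with a list median of 5.96 FPKM. The leucine carrier SLC7A5 read 316, 257 and 353 FPKM, its heavy chain SLC3A2 was at 96.0 ± 8.3, SLC38A2 at 215 ± 42.4 and the cystine carrier SLC7A11 at 47.0 ± 10.4. Of 18 glucose and lactate transporters 11 were expressed, with a list median of 3.25 FPKM. The glucose carrier SLC2A1 stood at 108 ± 13.7 FPKM and the lactate carrier SLC16A1 at 53.6 ± 7.8, while the sodium-glucose carrier SLC5A1 was at 0.113 ± 0.0154. In the water and ion list 29 of 40 were expressed, with AQP1, a cholangiocyte water channel, at 0.552 ± 0.0187 FPKM (26.5% shared). Iron storage was prominent, with FTL at 1027 ± 67.1 and FTH1 at 446 ± 48.4, the latter with 62.4% of exon bases shared.

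The untreated cells were then compared with the rest of the series, as control minus the mean of the 3 treated groups on log2(FPKM + 1), with limma's moderated test and Benjamini-Hochberg adjustment. Of 13609 genes tested, 2039 (15%) passed an adjusted p of 0.05. Control was higher in 933 (6.86%) and lower in 1106 (8.13%), and the 3 control libraries lay outside the range of all 9 treated libraries in 913 of the genes called. Of the 13609 tested genes, called or not, 1035 (7.61%) had no overlap of this kind. Over all tested genes the median difference was -0.0047. The count fell most without control 3 (1133) and control 1 (1327), and was 1702 without control 2. Leaving out 1 treated library gave 1507 (radiation 3) to 2479 (nab-paclitaxel 1). A treated mean pools 3 different treatments, so a gene moved by 1 of them also enters.

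Simple keratins were lower in untreated cells in 3 of 3 tested genes, against 8.13% of all genes. KRT19 was at 234 ± 30.5 FPKM in control and at 373 to 672 in the treated libraries, a log2 difference of -1.02 ± 0.10 (SE, adjusted p = 0.000255). KRT8 differed by -0.65 ± 0.13 and KRT18 by -0.60 ± 0.12, and in each the groups did not overlap. Of proteases and inhibitors 12 of 25 tested genes were lower in control and 1 higher, with a list median of -0.20. They included CPA4, a carboxypeptidase, at 2.61 ± 0.468 against 4.24 to 14.6. CDKN1A was also lower in control (log2 difference -1.01 ± 0.06, adjusted p = 6.43e-06). Of the 5 genes with the largest deficits in control without overlap, KRTAP2-3 and KRTAP2-4 encode hair keratin-associated proteins, SFN the 14-3-3 protein sigma and ANGPTL4 a lipoprotein lipase inhibitor, and CPA4 completes them.

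Amino acid transporters went the other way, with 11 of 19 tested genes higher in control and 1 lower, against 6.86% of all genes, and a list median of 0.37. SLC7A11 was at 47.0 ± 10.4 FPKM in control and at 10.7 to 28.4 in the treated libraries (log2 difference 1.09 ± 0.15, adjusted p = 0.00127). SLC38A1 differed by 0.70 ± 0.08, SLC7A1 by 0.72 ± 0.09 and SLC7A5 by 0.53 ± 0.11, the last losing its call without control 3. Without control 1, 2 or 3 the list had 10, 12 and 9 genes higher. Homologous recombination had 8 of 21 tested genes higher and 0 lower, with a list median of 0.26. BRCA1 was at 4.70 ± 0.255 FPKM against 1.65 to 3.85 (0.74 ± 0.08, adjusted p = 0.000507), and BRCA2 differed by 0.67 ± 0.10. The end joining polymerase POLQ differed by 0.66 ± 0.10. Without control 1, 2 or 3 the recombination list had 8, 7 and 6 genes higher, and without control 2 it also had 1 lower. The 5 largest excesses in control without overlap were all short noncoding RNAs, such as SNORD11 at 8.22, 9.30 and 4.73 FPKM, which in so short a gene rests on few fragments.

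**Figure D5:**
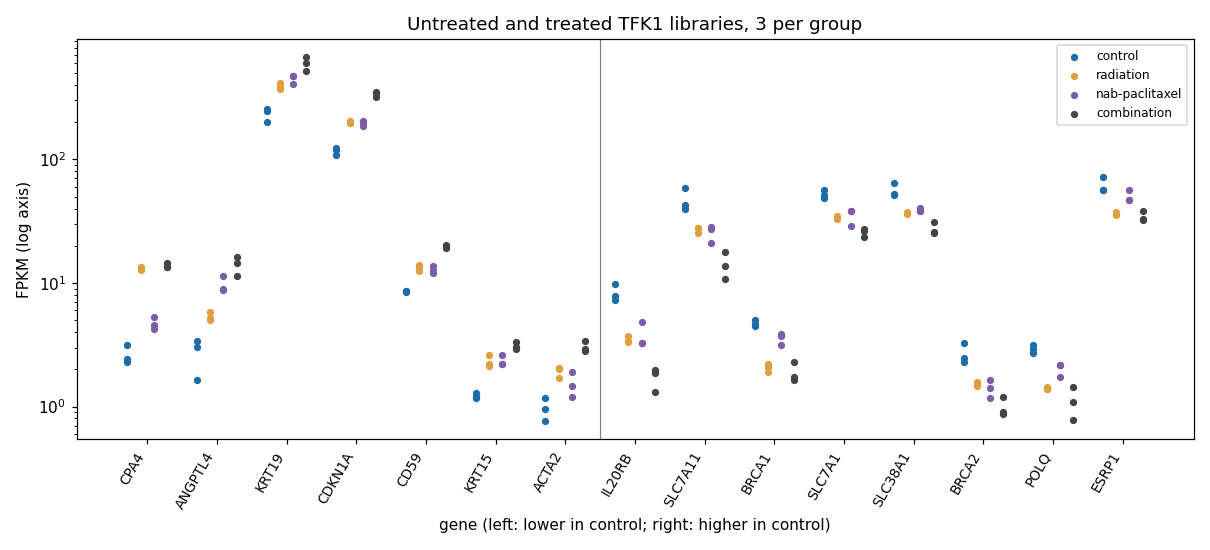
FPKM (vertical axis, log scale) of 15 listed genes with large differences from the treated groups whose groups did not overlap, each point 1 library and colours marking control, radiation, nab-paclitaxel and the combination. All 3 control points lie below the 9 treated points for the 7 genes on the left and above them for the 8 on the right.

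Among drug exporters, ABCC2 (0.34 ± 0.06) and ABCC3 (0.49 ± 0.09) were higher in control without overlap, while ABCC1 (adjusted p = 0.863) and ABCB1 (adjusted p = 0.951) did not pass. IL20RB, a cytokine receptor chain, was the listed receptor with the largest excess in control, at 8.28 ± 1.28 FPKM against 1.30 to 4.80 (1.26 ± 0.12, adjusted p = 0.000227). Of 32 tested receptor tyrosine kinases 1 was higher in control, MST1R (0.51 ± 0.09), and 1 lower, EPHA4 (-0.30 ± 0.08), which lost its call under 7 of 22 alternatives. Over all genes tested, 6.86% were higher and 8.13% lower. SOX9 was lower in control (-0.47 ± 0.06) and SOX4 and CDH1 were higher (0.28 ± 0.06 each), SOX4 losing its call without control 3 and CDH1 under TPM scaling. EPCAM (adjusted p = 0.947), ERBB2 (0.937), FGFR2 (0.588) and SPARC (0.583) did not pass, which does not show that they were equal.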

How the data were processed

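RNA-seq libraries of TFK1 cells in 4 groups of 3 were used, with groups taken from the labels. Libraries were made with a SMARTer mRNA kit, per the labels' protocols. The authors deposited FPKM values for 58735 genes, per the file headers, and the genome build was hg38 according to the submitters' processing notes. Which aligner and counter made them is not given in the sources used here. Deposited gene lengths equalled the union of exons in GENCODE release 29 for 100% of genes, and that annotation gave gene positions and shared exon bases. FPKM multiplied by length fell on whole fragments within 0.05 of a fragment, which gave fragment counts for depths and floors of 3 fragments.

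Control was compared with the mean of the 3 treated groups in limma 3.58.1 (R 4.3.3), with a mean-variance trend, on log2(FPKM + 1), for genes whose mean over the 12 libraries reached 1 FPKM, and p-values were adjusted by Benjamini-Hochberg over all genes tested, with a threshold of 0.05. Fold changes on this scale understate the change of low genes. Summaries used Python 3.11.15, pandas 2.3.3 and scipy 1.17.1. The procedure was tested on simulated data, which held no length-linked difference between libraries like that of control 2. Same-numbered libraries did not deviate together in every group, so the numbers were not used as pairs.

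The members and gene lists were chosen with earlier results of these data known, and no list is independent evidence. Named genes were the highest of all genes, those that varied most between controls, up to 6 highest and 6 absent members of each list, the cell type markers, and the genes called with the largest differences or smallest p. Other named genes, among them EGFR, MET, CIITA, CD74, MIF, RAD50, NHEJ1, ERCC5, MGMT, MAGEA6, the checkpoint kinases and the NKG2D ligands, were chosen after their values were seen. A planned comparison of promoter features over expression classes was void, because 76.9% of protein-coding symbols matched the promoter table and 80% were needed. Alternatives were other pseudocounts, filters, scalings and thresholds, voom on the recovered fragments, a replicate block and leaving out each library. Some genes are not reported here.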

Additional observations from a re-analysis of the deposited data

How the results depend on the processing

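The count of 2039 genes that differed between control and the treated groups became 1351 with no filter on low values, and ranged from 1133 to 2479 when each library was left out in turn. With a replicate block it was 1591. For pairing, each library's deviation from its own group mean on log2(FPKM + 1) was used, not its level. Deviations of same-numbered control and treated libraries correlated at -0.197 to -0.079 for radiation, -0.492 to 0.172 for nab-paclitaxel and 0.172 to 0.543 for the combination. The other alternatives gave 1360 (filter at a mean of 5 FPKM) to 2159 (voom on recovered fragments). Chosen after seeing the data, leaving out control 2 and nab-paclitaxel 1 together gave 2799, and leaving out genes that share at least 50% of exon bases gave 2037.

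Protein-coding genes expressed numbered 6492 at a threshold of 5 FPKM and 10925 to 11047 without each control library, and list members 386 at 5 FPKM and 638 to 642 without each control library. The lowest rank correlation between controls, 0.9489, became 0.8861 with no filter, 0.9003 with a filter at a mean of 5 FPKM and 0.9474 to 0.9758 without each control library. The count of 1236 genes with a spread of at least 1.5-fold became 3681 with a filter at a mean of 1 FPKM, which was chosen after seeing the data and tests 13835 genes, 2943 with TPM scaling, which tests 11837 genes, and 115 to 902 without each control library. Where no cause is given, the cause was not tested. The median difference over all tested genes went from -0.0047 to 0.0198 under TPM scaling. No other result reported here changed direction in these alternatives. Depth limits genes near 0, where 3 fragments set the floor.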
